A study of Homo sapiens with 4 samples.

Results

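The miR-17~92 cluster is a group of 6 microRNA (miRNA) hairpins cut from a single primary transcript, MIR17HG. Its mature products were followed in H661 cells, a long-established line from a human large cell carcinoma of the lung, after treatment with 2.5 µM entinostat for 8 h (2 libraries) or with the solvent dimethyl sulfoxide (DMSO; 2 libraries). Entinostat is a benzamide that blocks the class I histone deacetylases. Small RNA was sequenced, and the deposited table counts reads per mature miRNA name. Members were the rows whose name, without arm and copy number, is miR-17, miR-18a, miR-19a, miR-20a, miR-19b or miR-92a, which gave 10 of 826 rows. They were listed as hsa-miR-17-5p, hsa-miR-18a-5p, hsa-miR-18a-3p, hsa-miR-19a-3p, hsa-miR-19b-3p, hsa-miR-19b-1-5p, hsa-miR-20a-5p, hsa-miR-92a-3p, hsa-miR-92a-1-5p and hsa-miR-92a-2-5p, and are given here without the species prefix. The rule found no row for the opposite arms miR-17-3p, miR-20a-3p, miR-19a-5p and miR-19b-2-5p. All libraries came from the same line without a genetic change named in the labels, and its identity was taken from the labels, since no miRNA marker of H661 was set.

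A miRNA hairpin is cut into a 5p and a 3p arm, and an arm loaded into Argonaute guides it to messenger RNAs that pair with the seed, bases 2 to 8 of the miRNA. MIR17HG is a target of the transcription factors MYC and E2F, is amplified in some lymphomas and lung cancers, and its miRNAs repress cell cycle and apoptosis regulators such as CDKN1A and BCL2L11. Paralog clusters lie on chromosome X (from miR-106a to miR-363) and in the MCM7 gene on chromosome 7 (miR-106b~25), and carry some or all of the same seeds.

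The arms listed here fall into 4 seed groups. They are shown because the results below are grouped by seed and because some members differ by so few bases. Sequences are from RefSeq (GRCh38.p14), 5′ to 3′, with the seed in capitals.
miR-17-5p: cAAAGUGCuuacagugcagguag
miR-20a-5p: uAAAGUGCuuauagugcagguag
miR-18a-5p: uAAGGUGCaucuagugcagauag
miR-19a-3p: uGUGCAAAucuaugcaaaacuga
miR-19b-3p: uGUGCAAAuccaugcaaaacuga
miR-92a-3p: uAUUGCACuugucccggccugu
Counted from 1 at the 5′ end, miR-20a-5p differs from miR-17-5p by C1U and C12U, and miR-19a-3p differs from miR-19b-3p by C11U alone. The chromosome X miRNA miR-106a-5p differs from miR-17-5p by C1A alone, and miR-20b-5p differs from miR-20a-5p by U1C and U10C. No rule for reads shared by such near-identical miRNAs is given in the sources used here, so levels within these pairs are uncertain singly.

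The 6 hairpins lie at chr13:91350605-91351391 on the plus strand (GRCh38), within 787 bases. In GENCODE release 29 they overlap an exon in 2 MIR17HG transcripts and lie in an intron in 1 other. The miR-92a-3p arm is made from 2 loci, the last hairpin of this cluster, MIR92A1 (chr13:91351314-91351391, plus strand), and MIR92A2 in the chromosome X cluster (chrX:134169538-134169612, minus strand). The hairpins are shown with the shared 3p arm in capitals, since of the miR-92a rows only the 5p arms, miR-92a-1-5p and miR-92a-2-5p, tell the loci apart.
MIR92A1: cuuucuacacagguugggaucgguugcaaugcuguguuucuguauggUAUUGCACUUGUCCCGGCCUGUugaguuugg
MIR92A2: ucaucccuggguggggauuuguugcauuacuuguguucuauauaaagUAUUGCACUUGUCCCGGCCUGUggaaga
The rule therefore takes in 1 row, miR-92a-2-5p, that comes from chromosome X alone, and 2 rows, miR-92a-3p and miR-19b-3p, that come from both chromosomes.

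The libraries held 547875 and 753104 miRNA counts with entinostat, and 938559 and 561485 with DMSO. Levels are CPM (a miRNA's counts in each 1000000 counted) with TMM scaling, a trimmed mean of log ratios between libraries, and shares use unscaled totals. No spike-in is named, so a change in the size of the whole miRNA pool cannot be seen, and in bulk RNA fewer expressing cells and less RNA per cell cannot be told apart. Mature miRNAs are of nearly equal length, 22 or 23 bases for these members, so levels were compared between miRNAs without a length correction. Adapter ligation and PCR can recover sequences unequally, so an order of levels in the counts need not be the order in the cells. Separate cultures are not stated for the replicates, so p-values measure the spread between libraries, which may be technical.

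The 10 rows held 2.93% and 2.96% of all counts with entinostat (exact Clopper-Pearson 95% intervals 2.89 to 2.97% and 2.92 to 3.001%), against 3.22% and 2.92% with DMSO (3.18 to 3.25% and 2.88 to 2.97%). The second DMSO library lay below both entinostat libraries and the first above them. These intervals cover counting error only. The cluster was carried almost wholly by miR-92a-3p, which took 93.2% and 92.9% of the cluster's counts with entinostat and 94.1% and 93.3% with DMSO. Without it, the remaining 9 rows held 0.198% and 0.209% of all counts with entinostat and 0.188% and 0.196% with DMSO.

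The members were counted at very unequal levels. The most abundant, miR-92a-3p, which represses BCL2L11, stood at 27547 and 27331 CPM with entinostat, against 30409 and 27284 CPM with DMSO, and was the 7th most abundant of the 826 rows. Next came miR-17-5p, at 1410 and 1467 CPM with entinostat against 1257 and 1352 CPM with DMSO. Its seed partner miR-20a-5p had 419.7 and 448.2 CPM with entinostat against 421.7 and 397.2 CPM with DMSO. In the 4 libraries miR-92a-3p had 18.6 to 24.2 times the counts of miR-17-5p, and miR-17-5p had 2.98 to 3.40 times those of miR-20a-5p.

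For miR-18a the order of the arms was 3p over 5p. The 3p arm had 93.9 and 89.6 CPM with entinostat, against 98.5 and 110.4 CPM with DMSO. The 5p arm, which carries the miR-18 seed, had 14.7 and 29.001 CPM with entinostat, on 8 and 22 counts, against 17.1 and 17.8 CPM with DMSO, on 16 and 10 counts. The 3p arm thus had 3.09 to 6.38 times the counts of the 5p arm.

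The miR-19 products, which were the main oncogenic part of the cluster in mouse lymphoma models, were at or near 0 in this table. The counts of miR-19b-3p were 2 and 2 with entinostat against 5 and 4 with DMSO. Those of miR-19a-3p were 0 and 2 with entinostat and 0 and 0 with DMSO, and those of miR-19b-1-5p were 0 and 0 with entinostat and 2 and 0 with DMSO. The limit that 0 counts set (3 counts of the total, unscaled) was 5.48 and 3.98 CPM with entinostat and 3.20 and 5.34 CPM with DMSO. These 3 rows were too low for testing, and a difference between treatments was not detectable at this depth. In the genome MIR19A lies between MIR18A and MIR20A, and MIR19B1 between MIR20A and MIR92A1. Over the 4 libraries these neighbours averaged 98.1 CPM (miR-18a-3p), 422 CPM (miR-20a-5p) and 28143 CPM (miR-92a-3p). The last value includes the chromosome X locus MIR92A2, and the minor arm of MIR92A1 alone, miR-92a-1-5p, averaged 49.2 CPM.

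The minor 5p arms of miR-92a were also low. The chromosome 13 product miR-92a-1-5p had 42.3 and 27.7 CPM with entinostat, against 66.4 and 60.6 CPM with DMSO. The chromosome X product miR-92a-2-5p had 12.9 and 9.23 CPM with entinostat, against 23.5 and 10.7 CPM with DMSO, on 7, 7, 22 and 6 counts. In descending order of mean level the members were miR-92a-3p, miR-17-5p, miR-20a-5p, miR-18a-3p, miR-92a-1-5p, miR-18a-5p, miR-92a-2-5p, miR-19b-3p, miR-19a-3p and miR-19b-1-5p. For the first 4, the range over the 4 libraries did not overlap that of either neighbour in this order. The ranges overlapped between miR-92a-1-5p and miR-18a-5p, between miR-18a-5p and miR-92a-2-5p, and among the 3 miR-19 rows.

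**Figure D1:**
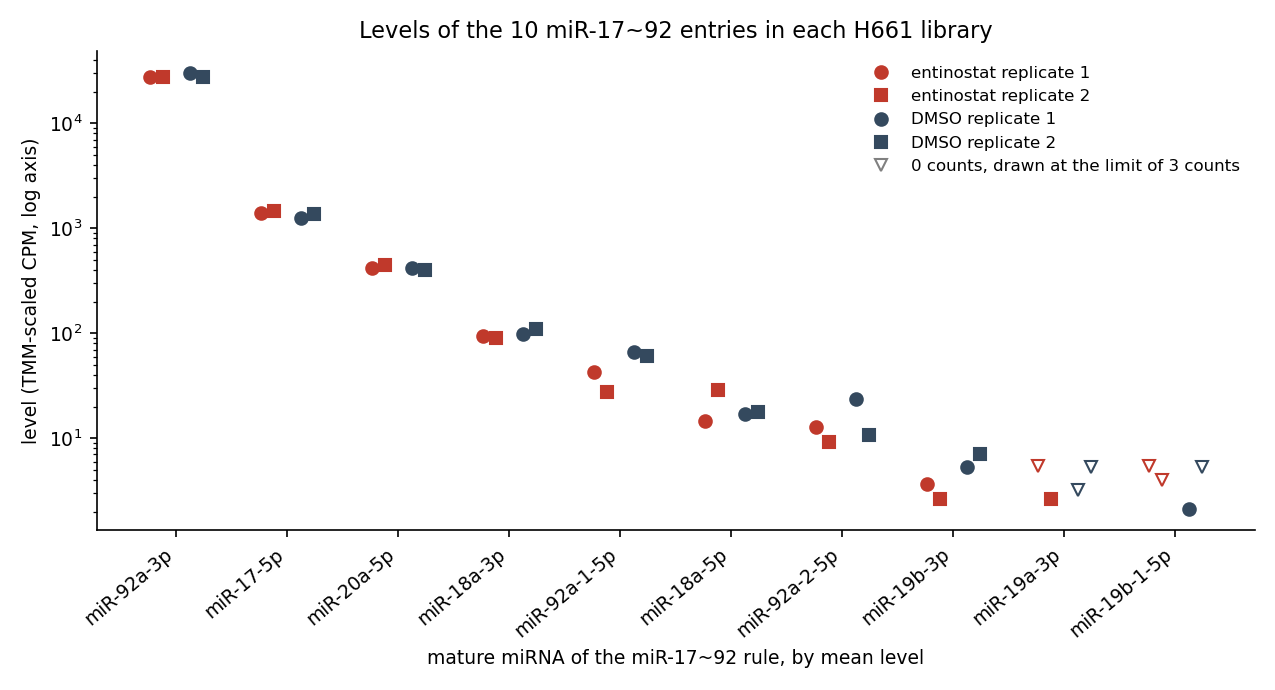
Level of each of the 10 members in each library, in TMM-scaled CPM on a log axis, with entinostat libraries in red left of DMSO libraries in dark blue; open triangles mark 0 counts, drawn at the limit of 3 counts. In every library miR-92a-3p stands at 27284 CPM or higher and miR-19b-3p at 7.13 CPM or lower.

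None of the cluster's members reached an adjusted p under 0.05. The comparison of entinostat with DMSO used edgeR's quasi-likelihood test over the whole table, and 6 members passed its low-count filter: miR-17-5p, miR-20a-5p, miR-18a-5p, miR-18a-3p, miR-92a-3p and miR-92a-1-5p. Of these, 0 were called, as were 0 of the 401 tested miRNAs (0%), and their adjusted p ran from 0.595 to 0.861. DESeq2, run on all 826 rows, and limma-voom, run on the 401, also called 0 miRNAs, with 11 and 31 at an unadjusted p under 0.05. By log2 fold change, 3 of the 6 lay above 0 and 3 below, with a median of 0.00526, beside 208 of 401 above 0 (51.9%) and a median of 0.00466 over all tested miRNAs. Upper quartile scaling moved the median of all tested miRNAs up by 0.12 on the log2 scale, and the directions below are relative to TMM scaling.

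The farthest from 0 was the minor arm miR-92a-1-5p, whose counts were 23 and 21 with entinostat and 62 and 34 with DMSO. Both entinostat libraries lay below both DMSO libraries, at 35.01 ± 10.4 CPM with entinostat and 63.5 ± 4.10 CPM with DMSO (SD, n = 2 each). The fold was 0.535 (95% interval 0.338 to 0.845; log2 fold change -0.90, SE 0.289), and it missed the threshold after adjustment (edgeR adjusted p = 0.595). Leaving out entinostat replicate 2 gave a log2 fold change of -0.60, and leaving out entinostat replicate 1 gave -1.22. It was the only member with an unadjusted p under 0.05 (edgeR unadjusted p = 0.0132), 1 of 6, where 27 of the 401 tested miRNAs (6.73%) had such a p, 15 of them lower with entinostat (3.74%). That unadjusted p was 0.129 with DESeq2, 0.175 in edgeR without entinostat replicate 2 and 0.0526 without DMSO replicate 1. Its chromosome X counterpart miR-92a-2-5p, too low for the filter, stood at 11.1 ± 2.59 CPM with entinostat and 17.1 ± 9.09 CPM with DMSO, and its libraries overlapped.

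The level of miR-92a-3p, the abundant product of both loci, was 27439 ± 153 CPM with entinostat and 28846 ± 2210 CPM with DMSO (SD, n = 2 each). The fold was 0.951 (95% interval 0.840 to 1.08), and the libraries overlapped, with DMSO replicate 2 below both entinostat libraries. Its log2 fold change of -0.07 became 0.04 with upper quartile factors.

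For the seed partners miR-17-5p and miR-20a-5p, which target CDKN1A among others, the folds were 1.11 (95% interval 0.951 to 1.28) and 1.06 (0.879 to 1.28). Both entinostat libraries lay above both DMSO libraries for miR-17-5p, at 1439 ± 40.5 CPM with entinostat and 1304 ± 67.5 CPM with DMSO (SD, n = 2 each), while the libraries overlapped for miR-20a-5p. For miR-18a-3p the fold was 0.884 (0.656 to 1.19), with both entinostat libraries below both DMSO libraries. For miR-18a-5p it was 1.30 (0.624 to 2.72), and its log2 fold change of 0.38 became -0.24 without entinostat replicate 2. In all, entinostat and DMSO libraries were fully separated for 3 of the 6 tested members, 1 higher and 2 lower with entinostat, beside 163 of the 401 tested miRNAs (40.6%), 83 higher (20.7%) and 80 lower (20%).

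**Figure D2:**
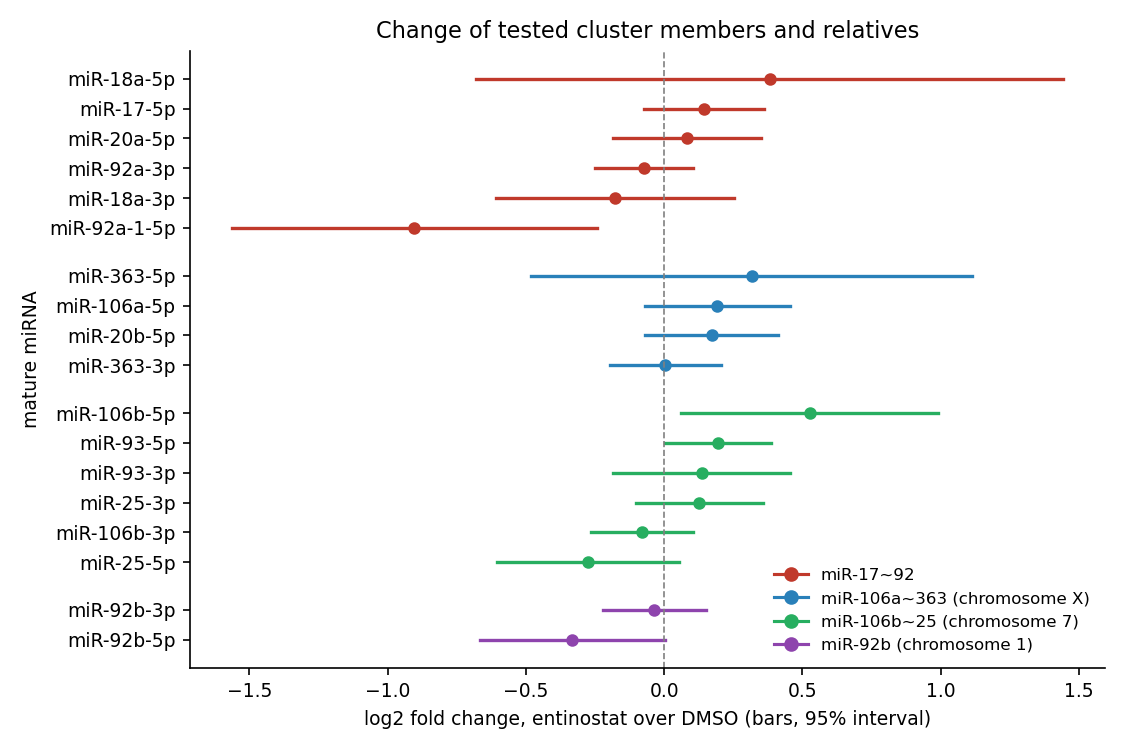
Log2 fold change, entinostat over DMSO, of the 6 tested members (red) and of the 12 tested relatives (blue, green and purple for the clusters they belong to), with 95% intervals from the edgeR fit. The interval of miR-92a-1-5p (-1.56 to -0.24) lies below 0, the other 5 cluster intervals include 0, and none of the 18 miRNAs passed the adjusted threshold.

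The relatives of the cluster, 17 rows of the paralog clusters and of the miR-92a seed relatives miR-92b and miR-32, gave 12 tested miRNAs, of which 0 were called. Of the 12, 8 lay above 0 and 4 below, with a median log2 fold change of 0.13, beside 208 of all 401 tested miRNAs above 0 (51.9%). The relatives with an unadjusted p under 0.05, both higher with entinostat, were miR-106b-5p and miR-93-5p, 5p arms of the miR-106b~25 cluster that share the miR-17-5p seed. Over all 401 tested miRNAs, 12 had such a p and were higher with entinostat (2.99%). The level of miR-106b-5p was 127.0 and 117.3 CPM with entinostat, against 94.2 and 71.3 CPM with DMSO, a fold of 1.44 (95% interval 1.04 to 1.99; edgeR adjusted p = 0.595). That of miR-93-5p was 5321 and 5824 CPM with entinostat, against 4937 and 4808 CPM with DMSO, a fold of 1.14 (edgeR adjusted p = 0.595). In both of them the entinostat libraries lay above the DMSO libraries, as in 5 of the 12 relatives, while in 3 of the 12 they lay below, beside 83 of 401 (20.7%) and 80 of 401 (20%).

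Seeds were read for the 729 of 826 rows with a RefSeq sequence. Among these rows the miR-17-5p seed AAAGUGC had 6 entries, 2 from this cluster. All 6 log2 fold changes were above 0, beside 208 of 401 over all tested miRNAs (51.9%). None of these entries was called, and the libraries overlapped for miR-20a-5p. The sequences of miR-17-5p, miR-20a-5p, miR-106a-5p and miR-20b-5p are near-identical. No rule for their shared reads is known, so these entries need not be separate observations. The summed level of the 6 entries was 8612 and 9221 CPM with entinostat, against 7874 and 7850 CPM with DMSO. Of this sum, miR-17-5p and miR-20a-5p supplied 21.2% and 20.8% with entinostat and 21.3% and 22.3% with DMSO. The largest supplier was miR-93-5p, with 61.8% and 63.2% with entinostat and 62.7% and 61.2% with DMSO. The sums were not tested.

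The miR-92a-3p seed AUUGCAC was carried by 5 of these rows, which summed to 52219 and 51370 CPM with entinostat, against 54152 and 51533 CPM with DMSO. Here the cluster supplied the largest part, 52.8% and 53.2% with entinostat and 56.2% and 52.9% with DMSO, though some of miR-92a-3p may come from chromosome X. The others were miR-92b-3p at 10449 and 10885 CPM with entinostat and 11439 and 10417 CPM with DMSO, miR-25-3p at 7361 and 7035 CPM with entinostat and 5992 and 7198 CPM with DMSO, and miR-363-3p at 6858 and 6114 CPM with entinostat and 6305 and 6626 CPM with DMSO. The low miR-32-5p completed the group, with 2 and 4 counts with entinostat and 6 and 4 with DMSO. The miR-18 and miR-19 seeds had no such abundant carrier: the other miR-18 entry, miR-18b-5p, had 0 and 0 counts with entinostat and 0 and 2 with DMSO, and miR-19a-3p and miR-19b-3p were the only rows of the 729 with theirs.

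**Figure D3:**
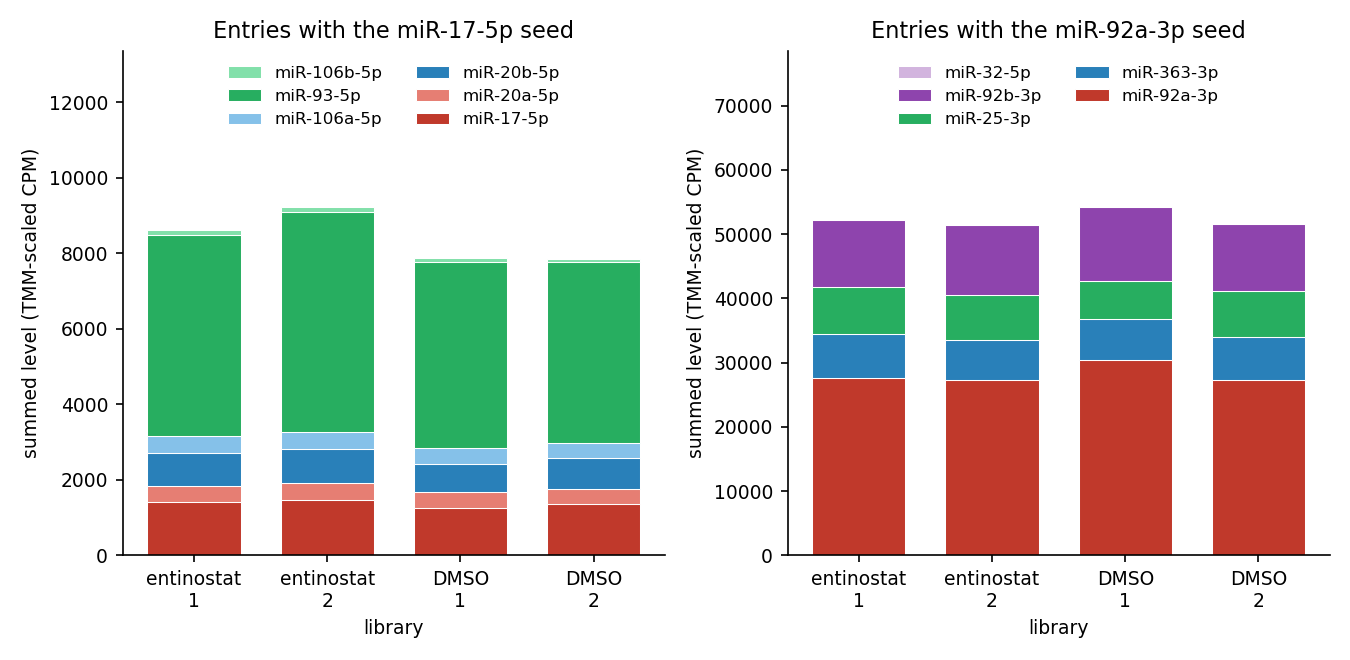
Summed level, in TMM-scaled CPM, of the entries with the seed of miR-17-5p (left) and of miR-92a-3p (right), stacked by miRNA in each library, with cluster members in red at the base. The cluster supplied 20.8 to 22.3% of the first sum and 52.8 to 56.2% of the second.

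Rows of the chromosome X cluster were counted beside those of MIR17HG in H661 cells, and the balance between counterparts differed from pair to pair. The counts of miR-17-5p were 3.03 and 3.14 times those of miR-106a-5p with entinostat and 2.99 and 3.42 times with DMSO. In contrast, miR-20a-5p had 0.483 and 0.50 times the counts of miR-20b-5p with entinostat and 0.566 and 0.481 times with DMSO. Both of these pairs are near-identical in sequence and no rule for their shared reads is known. Their ratios may therefore also reflect how reads were assigned. Among the arms that name the miR-92a locus, miR-92a-1-5p had 3.29 and 3.0 times the counts of miR-92a-2-5p with entinostat and 2.82 and 5.67 times with DMSO, on 6 to 22 counts of the chromosome X arm. The ratio of miR-18a-3p to miR-18b-3p ran from 4.86 to 25.5 over the 4 libraries, on 2 to 14 counts of miR-18b-3p. Only the chromosome X cluster holds a miR-363 hairpin, and miR-92a-3p had 4.02 to 4.82 times its 3p counts.

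**Figure D4:**
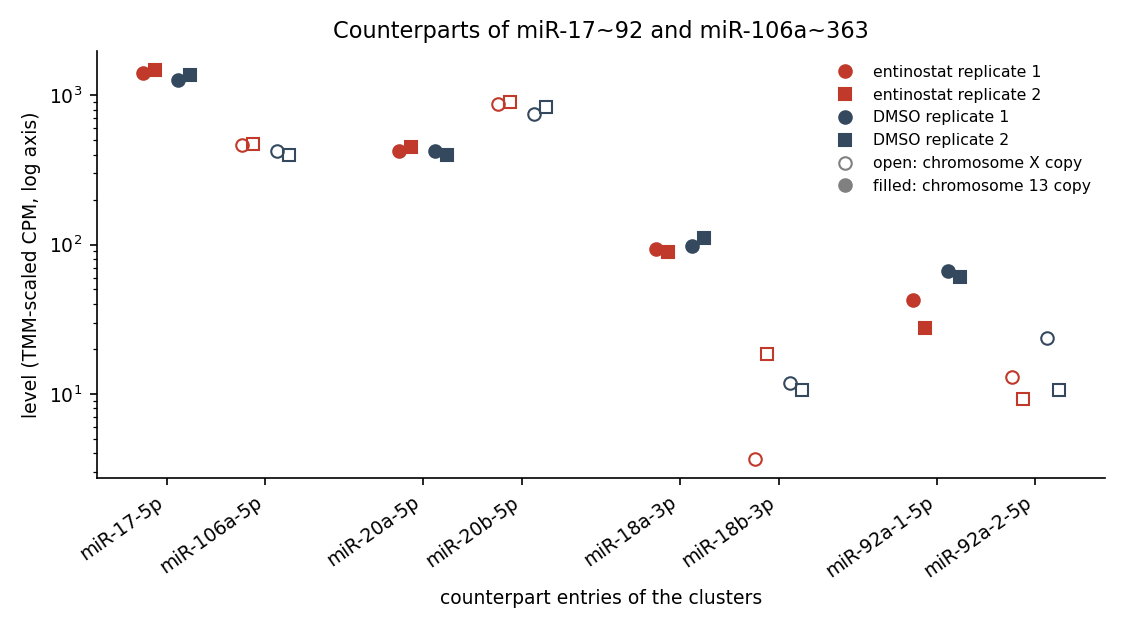
Levels, in TMM-scaled CPM on a log axis, of 4 chromosome 13 entries (filled) and their chromosome X counterparts (open) in each library, entinostat in red and DMSO in dark blue. The chromosome 13 entry lies higher for miR-17-5p, miR-18a-3p and miR-92a-1-5p, and the chromosome X entry for miR-20b-5p.

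The balance of the 2 arms of a hairpin needs no scaling between libraries, and was tested with limma on the log2 ratio of 5p to 3p counts over 102 hairpin names with both arms counted. Of the cluster, miR-92a and miR-18a could be tested. The miR-92a hairpins had the lowest 5p to 3p ratio of all 102, with 462 times as many counts in the 3p arm (geometric mean). Per 1000 miR-92a counts, the 5p arms of both loci together had 2.001 and 1.35 with entinostat, against 2.95 and 2.60 with DMSO. These 5p counts, 30 and 28 with entinostat and 84 and 40 with DMSO, were mostly those of miR-92a-1-5p. The ratio therefore rests largely on the same counts as the fold of that arm. The fit gave a difference of -0.74 in the log2 ratio (95% interval -1.36 to -0.13) that missed the threshold (limma adjusted p = 0.261). It was -1.03 without entinostat replicate 1 and -0.46 (-1.26 to 0.34) without entinostat replicate 2. For miR-18a the 5p arm took 13.6% and 24.4% of the hairpin's counts with entinostat and 14.8% and 13.9% with DMSO, a difference of 0.43 (-0.68 to 1.53; limma adjusted p = 0.745).

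Of the 102 hairpins, 1 was called (0.98%), none of the cluster, and 14 had an unadjusted p under 0.05 (13.7%). The 5p share was lower with entinostat in 6 of these 14 (5.88% of hairpins), miR-92a among them. The called hairpin, named after its values were seen, was let-7b, on 0 and 10 counts of its 3p arm with entinostat and 19 and 21 with DMSO, and 0 were called whenever any 1 library was left out. Among relatives, the 3p arm also led in miR-363 (169 times the 5p arm), miR-106b (59.96 times), miR-92b (32.8 times) and miR-25 (19.1 times), while in miR-93 the 5p arm took 95.4% and 95.8% of counts with entinostat and 95.2% and 95.7% with DMSO. The log2 ratio differed by 0.65 in miR-106b (0.17 to 1.13; limma adjusted p = 0.199) and by -0.41 in miR-25 (-0.72 to -0.10; limma adjusted p = 0.199). In miR-92b it differed by -0.32 (-0.63 to -0.0035; limma adjusted p = 0.353), and these 3 relatives had an unadjusted p under 0.05.

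**Figure D5:**
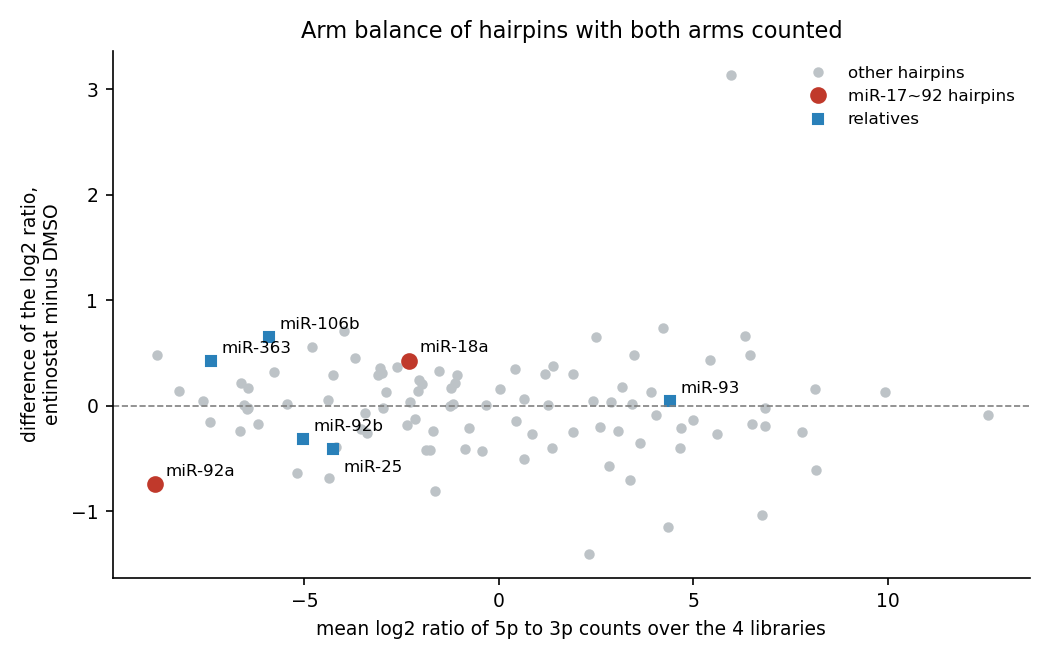
Difference of the log2 5p to 3p ratio, entinostat minus DMSO, against the mean log2 ratio over the 4 libraries, for 102 hairpin names; miR-92a and miR-18a are in red and relatives in blue. The miR-92a point is farthest left and at -0.74, and the single point above 3 is let-7b.

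The miRNAs whose profile over the 4 libraries lay closest to that of miR-17-5p, by the root mean square difference of centred log2 levels, were miR-432-5p (0.00798), miR-181b-5p (0.0160) and miR-589-5p (0.0197), where the median over 395 tested miRNAs outside the cluster was 0.18. For miR-92a-1-5p they were miR-1908-5p (0.17), miR-766-5p (0.20) and miR-424-3p (0.21), with a median of 0.52. The level of miR-1908-5p was 46.0 and 36.9 CPM with entinostat, against 65.3 and 60.6 CPM with DMSO. With 4 libraries this likeness is a description that also follows depth and replicate differences.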

How the data were processed

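Per the labels' protocols, TRIzol RNA went into small RNA libraries with New England Biolabs reagents; bcl2fastq 2.18 is named in the submitters' processing notes. For the aligner, counter, annotation and build, names were not given in the sources used here. The authors deposited whole-number counts for 826 miRNA names and a CPM table, which equals count over column total within 0.0001 CPM in 100% of rows. No molecular identifier is named, so the exact intervals of shares and the limits from 0 counts cover counting error only, while intervals of folds and arm ratios come from fits that include the spread between libraries.

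Counts were scaled by TMM and tested with edgeR 4.0.16 (quasi-likelihood, filterByExpr, minimum count 10 and total 15; 401 rows kept) in R 4.3.3, treatment as the only term, with Benjamini-Hochberg adjustment over all rows. The common dispersion was 0.00648. Replicate pairs differed by more than sampling noise (chi-square per degree of freedom 8.56 for entinostat and 6.74 for DMSO), so each library counted as 1. Arm ratios (counts plus 0.5, mean of 10 or more in each arm) were fitted with limma 3.58.1. Likeness used log2 of CPM plus 1. All members were named, and the 3 most alike miRNAs of miR-17-5p and miR-92a-1-5p. Both fits were also run on simulated counts that gave every row the common dispersion, which cannot speak for rows with a larger spread. Positions are from GENCODE 29, and 729 of 826 names matched RefSeq sequences. Members, lists and tests were chosen with earlier results of these data known. Alternatives included DESeq2 1.42.0, limma-voom, other scalings and filters.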

Additional observations from a re-analysis of the deposited data

How the results depend on the processing

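The count of 0 members called held under all 17 alternatives run on it. Over all tested miRNAs the count of 0 became 4 with the edgeR likelihood ratio test and ran from 0 to 5 when 1 library was left out, 5 being without entinostat replicate 1, in each case with 0 cluster members. The median log2 fold change of the members was 0.12 with upper quartile factors, as was that of all tested miRNAs, and ran from -0.11 to 0.037 with 1 library left out. The log2 fold change of miR-92a-1-5p kept its direction in 18 alternatives, from -1.22 to -0.60 (adjusted p 0.124 to 0.999), and that of miR-17-5p in 18, from 0.08 to 0.26. With near-identical rows summed it was 0.15 for miR-17-5p and 0.14 for miR-20a-5p. For miR-92a-3p it was 0.042 with upper quartile factors. With 1 library left out, miR-18a-5p ran from -0.24 to 0.72 and the arm ratio difference of miR-18a from -0.069 to 0.92, and that of miR-92a from -1.03 to -0.46, with an interval that includes 0 without entinostat replicate 2 or DMSO replicate 1. The 1 hairpin called in the arm ratio became 0 with a mean of 50 or more counts in each arm, a filter that removes that hairpin (let-7b) itself, and with it miR-18a and miR-92a, 0 with a replicate block and 0 to 0 with 1 library left out. Other causes were not tested, though leaving out a library leaves fewer samples. The entinostat minus DMSO difference in the cluster's share of counts, -0.12 percentage points, ran from -0.27 to 0.02 with 1 library left out.

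No label ties replicate numbers together, and deviations of same-numbered libraries from their group means had a Pearson correlation of -0.12 across 401 miRNAs. With a replicate block 0 miRNAs were called (25 at an unadjusted p under 0.05), and miR-92a-1-5p was at -0.87. With crossed numbers, chosen after seeing the data, 0 were called (32 at an unadjusted p under 0.05). Depth limits miR-18a-5p, the 5p arms of miR-92a and the miR-19 rows, which rest on 0 to 62 counts.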

Other observations

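Base composition was set beside the levels. Of the 729 rows with a RefSeq sequence, 105 had a GC content of 40% or lower, with a median of 8.01 CPM, and 624 had a higher one, with a median of 14.7 CPM. The GC content was 34.8% in miR-19a-3p and 39.1% in both miR-19b-3p and miR-20a-5p. Over the 4 libraries miR-19b-3p averaged 4.70 CPM and miR-20a-5p 422 CPM. Of the 105 rows of low GC content, 6 reached 1000 CPM, with miR-21-5p highest at 16407 CPM, and of the 624 others 85 did, with miR-99a-5p highest at 263269 CPM. The part of base composition in the miR-19 levels was not tested.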
